A study of Mus musculus with 6 samples.

Results

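The SOCS family comprises Cish and Socs1 to Socs7, and the data described here are the ChIP-seq peaks of 3 transcription factors at these 8 genes in mouse bone marrow-derived macrophages (BMDMs). A peak was counted for a gene when the deposited annotation named it as the gene with the nearest transcription start site (TSS). Distances are from that TSS along the direction of transcription, so a negative one is upstream. Of the 134964 peaks in the 6 deposited lists, 145 were named for a member, 59 of them in control cells and 86 after IL-4. Peaks were found for 7 of the 8 genes, and Socs4 had none in any list. Where peaks of different lists overlapped by at least 1 bp they were merged into a region, which left 66 member regions among 60856.

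The 6 samples were BMDMs of wild-type mice aged 8 to 12 weeks, grown from bone marrow for 6 days in L929 supernatant, a source of macrophage colony-stimulating factor (M-CSF). Control cells had M-CSF alone, and treated cells had IL-4 at 20 ng/ml for 1 h on the last day. ChIP was done on DSG- and formaldehyde-fixed chromatin against C/EBPα, IRF8 or JUNB, the last of which is an AP-1 subunit. Each factor and condition had 1 sample, so no value has a replicate or a test, and every difference is between 2 samples. All strains of the study were on the C57BL/6 background, according to its methods, and the labels do not give the number of animals behind a sample. These are whole cultures, so a change in every cell and a change in a few cannot be told apart. Of the listed marker genes, 7 of 7 for macrophages had a peak, against 2 of 5 for T cells, 3 of 4 for B cells and 2 of 4 for neutrophils.

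SOCS proteins and CIS, the product of Cish, are inhibitors of cytokine signalling. Each joins an SH2 domain, which docks on phosphorylated tyrosines, to a SOCS box, which recruits a ubiquitin ligase. Several of the genes are switched on by the STAT proteins they restrain, and this closes a negative feedback loop. SOCS1 and SOCS3 also carry a short kinase inhibitory region that blocks JAK kinases directly. IL-4 signals through JAKs to STAT6, which makes Cish and Socs1 textbook feedback genes of the IL-4 pathway. The comparison asked whether the binding of factors that already occupy macrophage enhancers changed at the genes for these brakes soon after the signal.

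The sequences below show the DNA under Cish and Socs1 peaks, most of them picked because they hold a STAT match. STAT dimers recognise a palindrome of TTC and GAA, with 3 bases between the triplets for most STATs (TTCNNNGAA) and 4 for the form that STAT6 prefers. Capitals mark matches to either spacing, and such a match is a description of letters and not a site of measured STAT binding. All but the short run at the start of Cish are the middle 200 bases, or the whole where shorter, of a region that held a peak only after IL-4, or, for the last 2, of a Socs1 region where an IRF8 peak was called after IL-4 beside an existing C/EBPα peak. Windows at 6593 bp from Cish and 95547 bp from Socs1 are shown for their scores. These were the highest of the peaks found only after IL-4 at each gene, and neither window holds a match. The whole region at 95547 bp does hold a TTCNNNGAA match, outside the printed bases, and that at 6593 bp holds none. The runs are written 5′ to 3′ on the strand named, with mm10 coordinates, and were read from the RefSeq GRCm38.p6 genome, which is the same assembly.
Start of Cish, between the promoter peaks, chr9:107296654-107296683, plus strand: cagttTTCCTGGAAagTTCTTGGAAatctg
Cish promoter, −877 bp, C/EBPα only after IL-4, chr9:107295731-107295893, plus strand: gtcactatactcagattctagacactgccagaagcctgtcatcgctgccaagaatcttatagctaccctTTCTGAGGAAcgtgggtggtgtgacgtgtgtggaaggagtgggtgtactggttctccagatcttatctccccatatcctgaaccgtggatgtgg
Cish, 11430 bp downstream, C/EBPα only after IL-4, chr9:107308038-107308201, plus strand: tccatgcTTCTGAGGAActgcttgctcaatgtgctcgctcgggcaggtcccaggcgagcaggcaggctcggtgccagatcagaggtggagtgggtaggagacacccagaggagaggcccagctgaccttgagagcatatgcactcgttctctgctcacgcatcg
Cish, 6593 bp downstream, C/EBPα only after IL-4, chr9:107303182-107303381, plus strand: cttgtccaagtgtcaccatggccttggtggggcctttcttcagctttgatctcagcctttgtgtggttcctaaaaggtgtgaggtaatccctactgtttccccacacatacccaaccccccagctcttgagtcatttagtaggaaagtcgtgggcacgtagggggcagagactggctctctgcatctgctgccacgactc
Socs1 promoter, −594 bp, IRF8 only after IL-4, chr16:10786030-10786229, plus strand: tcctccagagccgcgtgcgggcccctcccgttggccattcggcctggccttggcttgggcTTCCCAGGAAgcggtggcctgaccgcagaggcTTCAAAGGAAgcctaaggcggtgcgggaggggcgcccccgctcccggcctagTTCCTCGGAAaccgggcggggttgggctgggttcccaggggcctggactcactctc
Socs1, 101905 bp downstream, IRF8 only after IL-4, chr16:10683531-10683730, plus strand: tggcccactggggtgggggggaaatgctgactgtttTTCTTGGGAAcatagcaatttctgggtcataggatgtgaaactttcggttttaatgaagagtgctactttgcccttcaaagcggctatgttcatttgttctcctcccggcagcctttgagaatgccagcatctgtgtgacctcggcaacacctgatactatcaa
Socs1, 95547 bp downstream, IRF8 only after IL-4, chr16:10689889-10690088, plus strand: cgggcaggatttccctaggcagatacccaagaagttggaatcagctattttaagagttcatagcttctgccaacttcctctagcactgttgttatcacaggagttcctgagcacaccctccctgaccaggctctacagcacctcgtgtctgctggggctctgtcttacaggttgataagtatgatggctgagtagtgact
Socs1, 82997 bp downstream, C/EBPα and IRF8, chr16:10702439-10702638, plus strand: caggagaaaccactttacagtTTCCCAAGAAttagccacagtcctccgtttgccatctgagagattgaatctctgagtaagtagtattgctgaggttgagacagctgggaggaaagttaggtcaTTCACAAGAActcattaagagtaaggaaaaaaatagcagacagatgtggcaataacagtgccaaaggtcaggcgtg
Socs1, 108784 bp downstream, C/EBPα and IRF8, chr16:10676652-10676851, plus strand: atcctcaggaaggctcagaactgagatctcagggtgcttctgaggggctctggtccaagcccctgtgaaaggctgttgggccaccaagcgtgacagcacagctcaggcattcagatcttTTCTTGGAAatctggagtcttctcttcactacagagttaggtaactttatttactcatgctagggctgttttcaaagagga

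The other Socs1 promoter region, which held the highest IRF8 peak of that gene in both conditions, carried another kind of match. The 250 bases before the RefSeq start of Socs1 are given on the strand of the gene. Capitals mark an overlapping pair of ISRE-like matches, which are GAAA repeats spaced by a pair of bases of the kind bound by interferon regulatory factors such as IRF8.
Socs1 upstream, chr16:10785537-10785786, minus strand: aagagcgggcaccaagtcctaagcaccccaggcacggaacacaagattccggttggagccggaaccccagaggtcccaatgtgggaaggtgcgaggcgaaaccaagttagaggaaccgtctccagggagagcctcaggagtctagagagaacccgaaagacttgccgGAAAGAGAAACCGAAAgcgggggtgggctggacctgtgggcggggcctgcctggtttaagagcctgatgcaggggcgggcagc

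Cish and Socs1 had more than 2 times as many peaks after IL-4 as in control, 7 against 3 at Cish and 23 against 10 at Socs1. Socs6 had 25 in control and 32 after IL-4, a larger step in number than at Cish. Socs3 had 8 and 10 and Socs5 7 and 8. Socs2, with 2 and 2, and Socs7, with 4 and 4, had equal numbers. Among the control lists, C/EBPα had 21 member peaks of 24486, IRF8 33 of 37525 and JUNB 5 of 3940. After IL-4 the numbers were 30 of 24612, 51 of 42076 and 5 of 2325. The IRF8 list was also longer after IL-4 and the JUNB list shorter, while the C/EBPα lists were close in length.

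**Figure D1:**
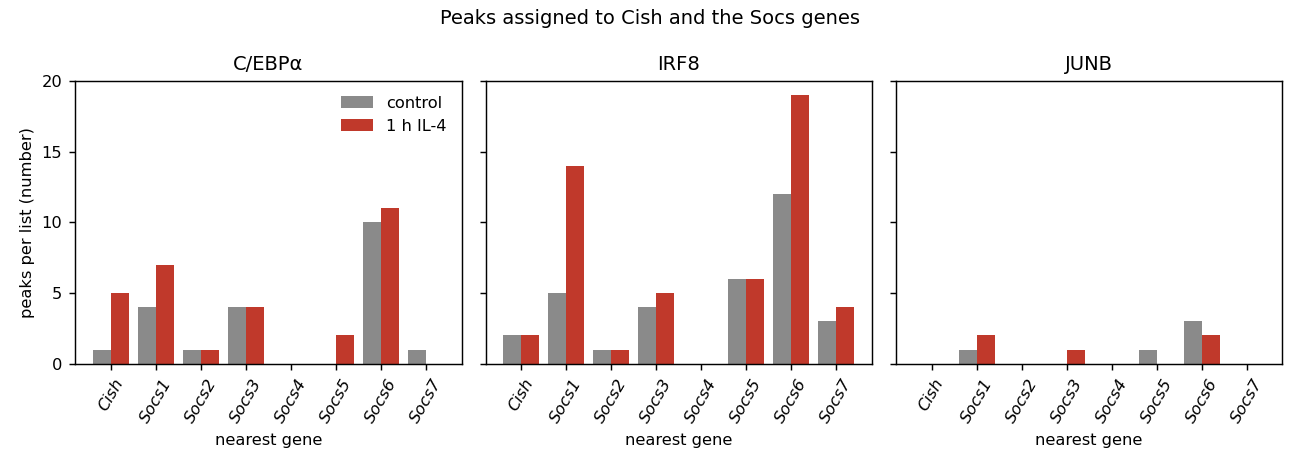
Number of peaks (y axis) named for each gene (x axis) in the C/EBPα, IRF8 and JUNB lists, with control in grey and 1 h IL-4 in red. The largest steps are IRF8 at Socs1, 5 against 14, IRF8 at Socs6, 12 against 19, and C/EBPα at Cish, 1 against 5.

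The share of peaks called in 1 condition only takes list length out in part. For C/EBPα, 12 of the 30 member peaks after IL-4 had no overlapping control peak, a share of 40.0% (Wilson 95% interval 24.59 to 57.68), against 22.0% of all C/EBPα peaks after IL-4. For IRF8 it was 19 of 51, or 37.25% (25.32 to 50.97), against 30.4% of the list. JUNB had 3 of 5 such peaks (23.07 to 88.24%), against 39.2%. The C/EBPα share lay above that of its list, the list value falling below the interval, whereas the intervals of IRF8 and JUNB included theirs. Other rules changed this for both C/EBPα and IRF8. With scores of at least 5, the IRF8 share was 39.1% (26.4 to 53.5), and the list share of 25.5% fell below the interval. For C/EBPα the list value lay inside the interval under 2 other rules. When sharing needed 50% of both peaks to overlap, the list share of 26.2% lay inside the interval, and among all C/EBPα peaks within 50000 bp of a member's annotated TSS, whatever their named gene, the share was 27.0% (15.4 to 43.0, n = 37). In the other direction, 3 of 21 control C/EBPα member peaks had no partner after IL-4, 14.29% (4.981 to 34.64) beside 21.4% of the list. No control IRF8 member peak lacked a partner (0 of 33, Wilson 95% interval 0 to 10.43%), beside 21.4% of all IRF8 peaks. With the 50% rule 12.1% of these 33 lacked one, beside 30.2% of the list. For JUNB 3 of 5 lacked one, beside 64.2%. The intervals cover counting error only, and neighbouring peaks of a gene are not independent. Without Socs1 the C/EBPα share only after IL-4 was 39.1% (22.2 to 59.2) and the IRF8 share 27.0% (15.4 to 43.0).

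**Figure D2:**
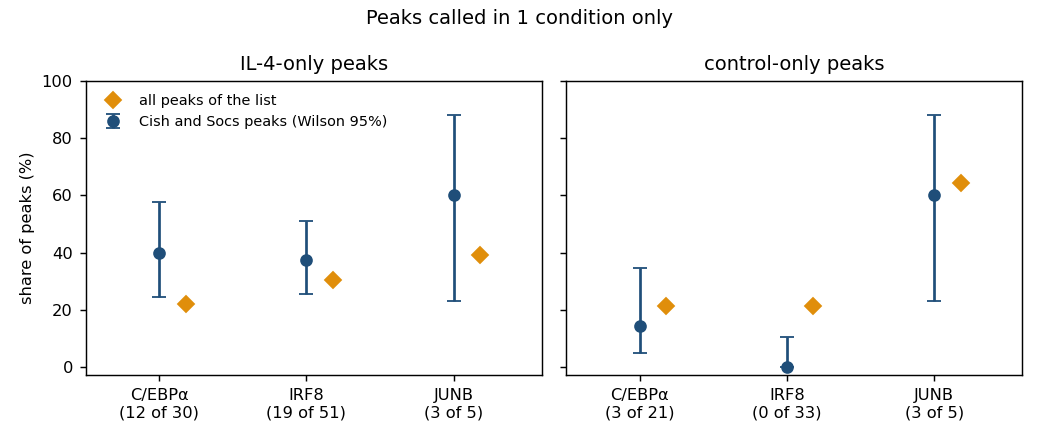
Share of peaks, in percent (y axis), found only after IL-4 (left) or only in control (right) for each factor, with Cish and Socs peaks as blue points with Wilson 95% intervals and all peaks of the list as orange diamonds. The C/EBPα members stand at 40.0% against 22.0% on the left, and the IRF8 members at 0 of 33 against 21.4% on the right.

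The peak score gave a second measure. The deposited score comes without a unit, and from its values it was read as the −log10 of the caller's p or q, so it rises with sequencing depth, which is unknown. That reading is uncertain, because the lowest value of 1.3 is below what the q limit in the paper's methods would give. A ratio of scores is thus not a ratio of peak heights. Among peaks paired between conditions, 7 of 18 C/EBPα member pairs scored at least 1.5-fold higher after IL-4, against 17.7% of all pairs of the list, and 3 at least 1.5-fold lower, against 17.8%. The median ratio was 1.228 for members, 1.08 without Socs1, and 0.9974 for all pairs. With scores of at least 5 the member median was also 1.08. It was 1.10 within 100000 bp of the TSS and 1.09 within 50000 bp of an annotated TSS. Among the 7 higher pairs were control scores of 3.67, 4.12, 4.51 and 4.59, at percentiles 4.5 to 10.4 of the list. Of 32 IRF8 member pairs, 10 were at least 1.5-fold higher, against 23.6%, and 4 lower, against 17.5%. The median ratio there was 1.186 against 1.059. JUNB had 2 member pairs, 1 at Socs1 at 1.68 times the control score and 1 at Socs6 at 0.5992 times. Across its list 9.60% of JUNB pairs were higher and 47.9% lower by this limit. The IRF8 count includes a pair at Cish, with the highest ratio of 3.682, that joins a wide IL-4 peak to the weaker of 2 control peaks beneath it. Taken by region, the top scores there were 22.2 and 18.52 without and with IL-4, and 9 IRF8 regions were higher.

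**Figure D3:**
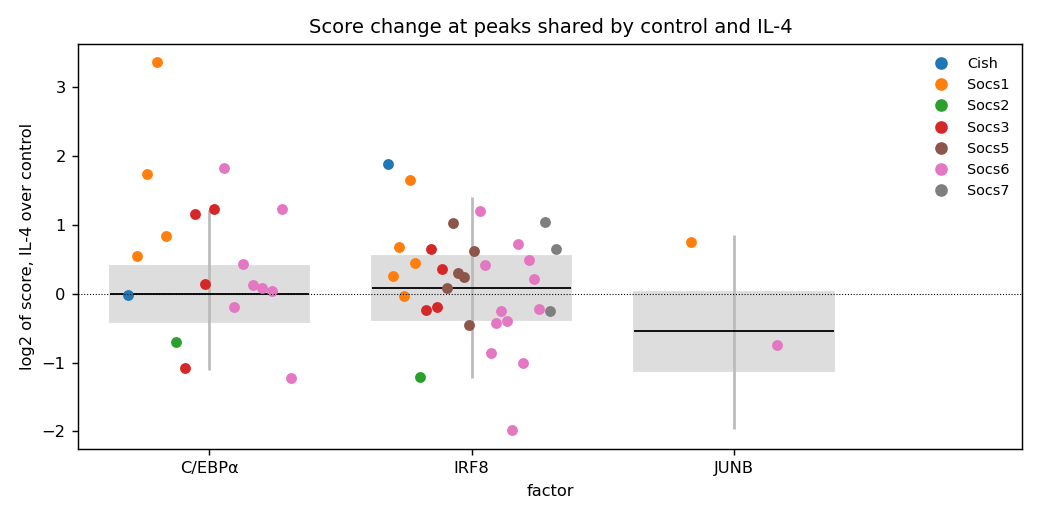
Log2 of the IL-4 score over the control score (y axis) at paired peaks of each factor, with points coloured by gene, grey boxes for the quartiles, grey lines for the 5th to 95th percentile and black lines for the median of all pairs of that factor. The top C/EBPα point is Socs1 at a ratio of 10.28, the lowest IRF8 point is Socs6 at 0.2527, and the Cish IRF8 point is the pair of unequal peaks described in the text.

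Taken as regions, 22 of the 66 had a peak only after IL-4, a share of 33.3% beside 22.1% of all regions. Only 2, at Socs6 and Socs7, had a peak only in control, which is 3.03% beside 15.4%. Binding by at least 2 of the factors in any condition was found in 21 member regions, and this share of 31.8% was next to the 32.3% of all regions. All 3 factors met in 2 member regions in control, 3.03% beside 4.19% of all regions, and in 3 after IL-4, 4.55% beside 2.61%. With peak centres required to lie within 200 bp, the numbers were 2 and 2. In no member region was one factor new or at least 1.5-fold higher while another was no longer called or as much lower. This was the case in 4.50% of all regions. With 66 member regions, a count of 0 does not set them apart from that share, and the difference was not tested. C/EBPα and IRF8 were both new or higher in 5 member regions, 7.58% beside 3.97% of all. For C/EBPα and JUNB it was 3, or 4.55% beside 0.434%, and for IRF8 and JUNB 2, or 3.03% beside 0.513%. IRF8 and JUNB were both lower in 1 region, at Socs6, or 1.52% beside 0.942%, and no region had both lost or lower for the other pairs.

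Cish, at chr9:107296026-107302784 on the plus strand, encodes CIS, which competes with STATs for docking sites on cytokine receptors. This span, like those of the genes below, is from GENCODE. It begins upstream of the start printed above and of the TSS used for distances, so the promoter peak at −513 bp overlaps it. All 3 promoter regions of the gene had a peak after IL-4, and 1 had a peak in control. The resting C/EBPα peak at −513 bp changed little, with scores of 9.23 in control and 9.08 after IL-4. At −877 bp a C/EBPα peak of 5.69 was called only after IL-4. An IRF8 peak of 5.96 was likewise called only after IL-4, at 98 bp. Both new peaks were low, and the IRF8 peak stood at percentile 28.4 of its list. The 2 STAT matches at the start of the gene, printed above, ended at the edge of this IRF8 peak, and 2 further TTCNNNGAA matches lay inside it.

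Downstream of Cish the picture was of new C/EBPα peaks. They were at 6593 bp, with a score of 12.15, at 11430 bp, with 8.81, and at 16301 bp, with 5.39. None had a control peak. The most distant of these joined an IRF8 region that was occupied in both conditions, at 22.2 in control and 18.52 after IL-4. The peak at 11430 bp carried a 4-base STAT match near its edge. JUNB had no peak at Cish in either list.

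Socs1, at chr16:10782240-10785536 on the minus strand, encodes a direct inhibitor of JAKs, and its locus held the highest new IRF8 peak of the family. The promoter carried a strong resting IRF8 peak at −118 bp, with a score of 68.22 in control and 92.71 after IL-4, over the ISRE-like pair printed above. Next to it, at −594 bp, an IRF8 peak of 13.89 was called only after IL-4, and the 200 bases at its centre held 3 STAT matches of the 4-base form. Neither C/EBPα nor JUNB had a peak at the Socs1 promoter. Downstream, at 14428 bp, the IRF8 score was 5.71 in control and 17.97 after IL-4, while at 30775 bp it was 7.59 and 7.41. The latter region also held JUNB at 7.88 in control and 13.24 after IL-4, the only member region where JUNB was higher by the 1.5-fold limit. A region at 4265 bp had no control peak, and after IL-4 it held 2 C/EBPα peaks of 8.92 and 5.16 and a JUNB peak of 5.42. The remaining IRF8 peak outside a neighbouring gene was at 10670 bp, with a score of 5.67 only after IL-4.

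Of the 16 Socs1 regions, 10 lay in introns of the neighbouring gene Clec16a, which encodes a regulator of autophagy, between 44263 and 108784 bp downstream of the Socs1 TSS. The annotation gave them to Socs1 because its TSS was nearest, and which gene they serve was not measured. Most of the new Socs1 peaks were there, as were most of the Socs1 regions. In these introns 2 regions held IRF8 in control and 9 after IL-4, and outside them 3 and 5 did. For C/EBPα the numbers were 4 and 5 in the introns and 0 and 1 outside. Beyond 80000 bp the block of 7 regions had 4 C/EBPα peaks and no IRF8 peak in control, and 5 C/EBPα and 6 IRF8 peaks after IL-4. In this block IRF8 thus had peaks only after IL-4, and 4 of its 6 were at regions where C/EBPα was present in control. The absence of control IRF8 depends on where the 80000 bp edge was put. The next Clec16a regions toward the gene with an IRF8 peak in control were at 61549 and 52865 bp.

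Within the block the largest difference was at 82997 bp, where C/EBPα scored 7.03 in control and 72.3 after IL-4, a ratio of 10.28. In rank within its list this peak moved from percentile 29.3 to percentile 94.8. An IRF8 peak of 13.41 was called there only after IL-4, and the window held 2 of the 4-base STAT matches. At 108784 bp C/EBPα was already strong, with 70.18 in control and 102.85 after IL-4, and an IRF8 peak of 16.06 was new. The region at 90366 bp had C/EBPα at 4.12 in control and 13.7 after IL-4, with a new IRF8 peak of 18.16. At 81485 bp both were low, C/EBPα being 4.59 and 8.25 and IRF8 5.01 after IL-4. The other 3 regions had 1 factor and no control peak. These were IRF8 at 95547 bp, where the score of 34.63 was the highest of any IRF8 member peak seen only after IL-4, IRF8 at 101905 bp with 9.43, and C/EBPα at 85092 bp with 8.67. Nearer to the gene, the Clec16a introns also held IRF8 peaks present in both conditions at 52865 bp, scoring 34.83 and 56.04, and at 61549 bp, with 8.99 and 10.72, as well as a new peak of 9.16 at 44263 bp.

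**Figure D4:**
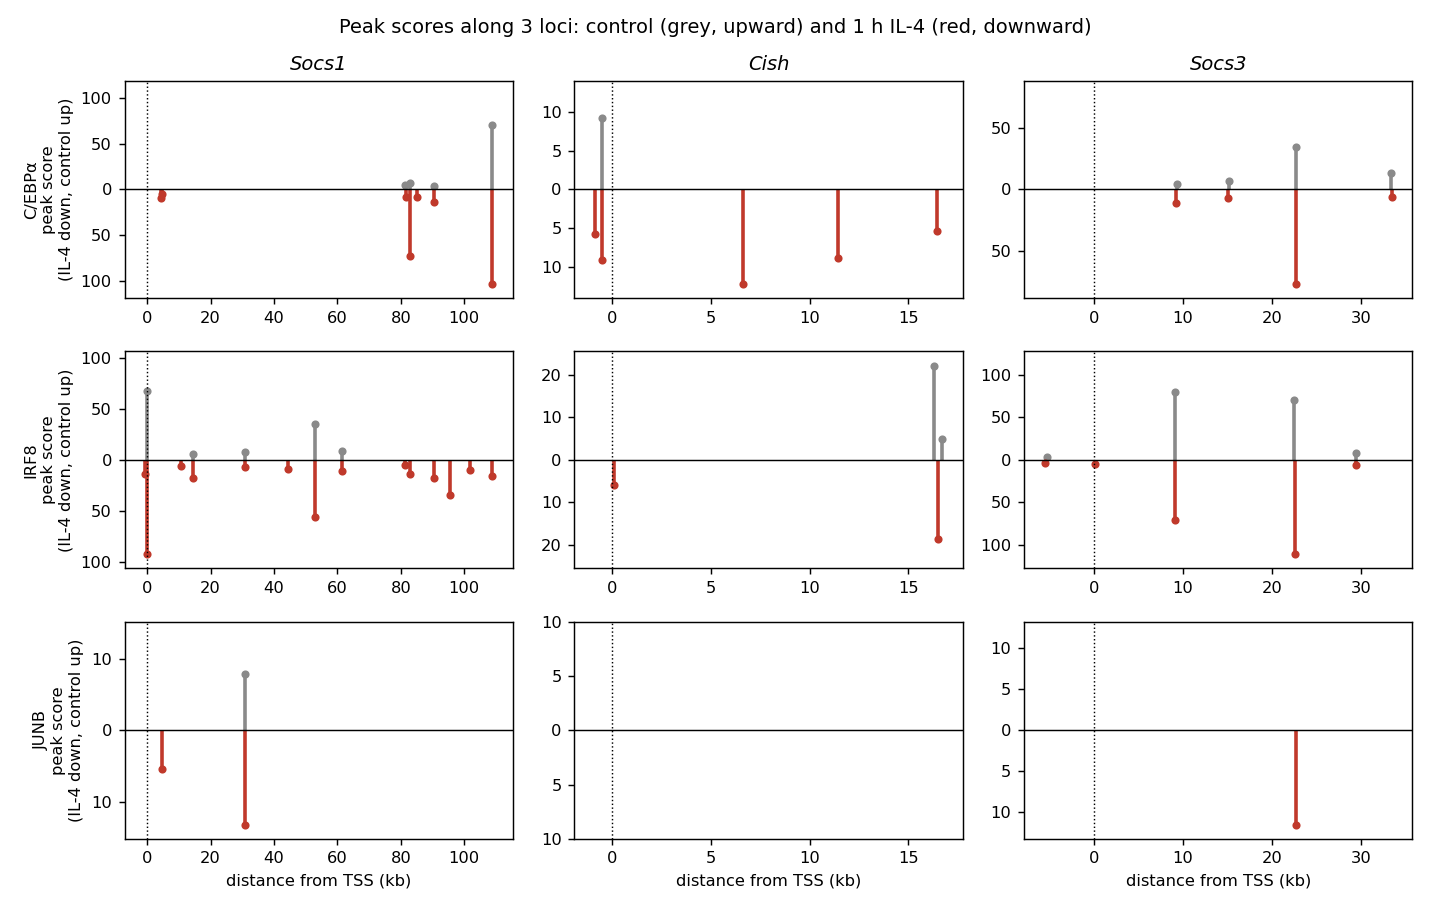
Peak score (y axis) against distance from the TSS in kb (x axis) at Socs1, Cish and Socs3 for each factor, with control drawn upward in grey and 1 h IL-4 downward in red. In the Socs1 column IRF8 has 6 red lines and no grey line beyond 80 kb, an edge that lies past its farthest grey line. The C/EBPα line at 83 kb is 7.03 upward and 72.3 downward.

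Socs3, at chr11:117966079-117970047 on the minus strand, is the inhibitor of IL-6-type cytokine receptors. Most of its binding lay downstream of the gene, and 6 of its 7 regions had a peak both before and after IL-4. At 22543 bp C/EBPα scored 33.97 in control and 76.22 after IL-4, and IRF8 scored 70.69 and 110.86. A JUNB peak of 11.5 was called there only after IL-4, at percentile 85.9 of its list, so that all 3 factors met at this region. They did not under the rule of centres within 200 bp, because the C/EBPα and IRF8 centres lay farther apart. At 9105 bp IRF8 was kept, at 80.24 and 70.14, and C/EBPα was 4.51 in control and 10.64 after IL-4. That window held a TTCNNNGAA match. The far C/EBPα peak at 33407 bp went the other way, from 13.58 to 6.43. The rest of the locus was low, with C/EBPα at 15059 bp scoring 6.46 and 7.12, IRF8 at 29482 bp scoring 7.69 and 6.55, and IRF8 upstream of the gene scoring 3.21 and 4.13. Within the gene, the 5′ UTR was the only region without a control peak, with IRF8 at 4.73 after IL-4. Such regions were 1 of 7 here, 4 of 6 at Cish and 7 of 16 at Socs1, and the difference was not tested.

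Socs6 had the most peaks of the family, 57 in 23 regions. The SOCS6 protein is a substrate-binding part of a ubiquitin ligase that acts on receptor tyrosine kinases. All but 1 of the regions were outside the RefSeq gene, with peaks up to 659845 bp from its TSS, and 10 peaks were more than 100000 bp away. Many lie inside the longer Socs6 model of GENCODE. A cluster of 4 neighbouring regions held the highest IRF8 and JUNB scores of the family, and all 4 were occupied in control. At 70155 bp IRF8 scored 137.71 in control and 102.4 after IL-4, with C/EBPα at 74.31 and 65.11. At 69505 bp IRF8 scored 87.51 and 73.95. All 3 factors were present in control at 55841 bp, where IRF8 was 81.3 and 61.7 and C/EBPα 9.87 and 13.36. At 48457 bp C/EBPα was 78.1 and 85.48, whereas IRF8 was 36.84 in control and 9.31 after IL-4, a ratio of 0.2527 and the lowest of any IRF8 member pair. IRF8 was thus lower after IL-4 at each of these 4 strong Socs6 regions, and only the last passed the 1.5-fold limit. The 4 regions were singled out for high IRF8 and JUNB scores, the top ones being control scores. Such a choice by itself favours lower scores after IL-4.

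JUNB was lower or no longer called at 3 of these regions. At 48457 bp it was 27.17 in control, its highest member score, and 16.28 after IL-4. Its control peaks of 9.18 at 55841 bp and 4.71 at 69505 bp had no partner after IL-4. A JUNB peak of 5.03 appeared instead at 73961 bp, in a region with no control peak of any factor, together with C/EBPα at 25.69 and IRF8 at 18.91. That C/EBPα score was the highest of all member peaks called only after IL-4. Other differences at Socs6 were C/EBPα at 112983 bp, with 14.49 in control and 51.2 after IL-4, a new IRF8 peak of 19.13 at 103752 bp, and C/EBPα at −37420 bp, with 19.39 and 8.33. C/EBPα peaks of 7.37 and 5.21, at −16832 and −30283 bp, were called in control only. Of the 23 regions 8 were new after IL-4, or 34.8%.

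Socs5, at chr17:87107679-87137839 on the plus strand, has been linked to the IL-4 receptor in T cells. Binding there was mainly by IRF8 and in both conditions, with 6 IRF8 peaks each. At the promoter IRF8 scored 15.7 in control and 19.31 after IL-4, beside a JUNB peak of 4.08 in control alone. In the first intron, at 2561 bp, IRF8 was 26.87 and 31.72, and a C/EBPα peak of 5.16 was called only after IL-4. A second C/EBPα peak of 18.71, at 34536 bp, had no control partner and stood alone in its region. The IRF8 peak at −23896 bp was 11.91 in control and 24.34 after IL-4. None of the 7 Socs5 regions held a STAT match.

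Socs2 had 4 peaks, Socs7 had 8 in 5 regions, and Socs4 had none. Socs2, which restrains growth hormone signalling and lies at chr10:95385362-95417180, had 2 regions, and both were lower after IL-4. C/EBPα at 29399 bp scored 19.08 in control and 11.79 after IL-4, and IRF8 at the promoter, annotated there to the overlapping transcript 5730420D15Rik, scored 7.58 and 3.27. Socs7, at chr11:97362551-97398542, had an IRF8 peak in its 3′ UTR with 23.15 in control and 19.55 after IL-4, and an intronic IRF8 peak at 876 bp with 3.76 and 7.72. It also had C/EBPα at 38826 bp in control alone, with 7.18, and a new IRF8 peak of 6.43. Socs4, at chr14:47276931-47296102, had no peak named for it, which says only that no peak passed the limit of the caller with this TSS as the nearest.

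STAT-type letters were more frequent in the member regions than over the whole series, in the same 200-base windows. The 3-base form was in 10 of 66 member windows, 15.2% (Wilson 95% interval 8.44 to 25.7), and in 7.38% of all regions. For the 4-base form the numbers were 12, or 18.2% (10.7 to 29.1), and 7.63%. Over whole regions the 3-base form was in 19.7% (11.9 to 30.8) against 11.6%. The 4-base form was then in 22.7% (14.3 to 34.2) against 11.7%. Either form was present in 22 windows, 33.3% (23.2 to 45.3), against 14.4% of all regions. By contrast AP-1 letters (TGACTCA or TGAGTCA on either strand) were in 12.1% and 10.9%, C/EBP letters (TTGCNNAA) in 22.7% and 18.4%, and PU.1-type letters (GAGGAAGT) in 13.6% and 10.6%. ETS-IRF composite letters were in 13.6% and 10.8%, and ISRE-like letters in 10.6% and 7.61%. For each of these other motifs the value of all regions lay inside the interval of the members. Socs1 and Cish held 11 of the 22 windows with STAT letters, 8 of 16 regions and 3 of 6, and Socs2 had them in 2 of 2, Socs3 in 2 of 7 and Socs6 in 7 of 23.

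The share of regions with STAT letters was higher among the new regions. Of the 22 regions with a peak only after IL-4, 11 held a match, 50% (30.7 to 69.3), against 20.3% of all such regions in the series. Of the 42 regions with peaks in both conditions, 11 did, 26.2% (15.3 to 41.1), against 13.6%. The 2 intervals overlap, which does not settle whether the difference within the family exceeded the counting error, and it was not tested. In the RefSeq promoter table, which covers 250 bases before and 50 after the start and lists 4 of the 8 genes (Cish, Socs1, Socs3 and Socs4), TTCNNNGAA was in 8.3% of promoters, at 2 positions in Cish and 1 in Socs3. The ISRE-like letters of Socs1 were in 3.44% of promoters. At JUNB peaks, 4 of the 8 member regions held AP-1 letters, against 39.2% of all regions with a JUNB peak.

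**Figure D5:**
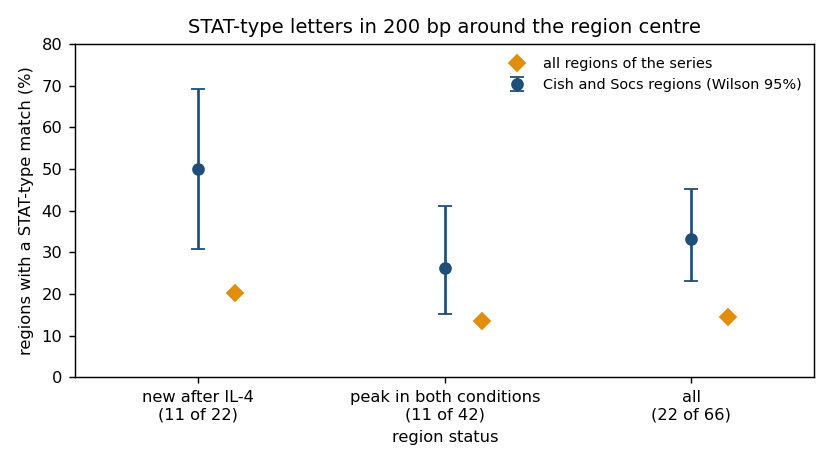
Share of regions, in percent (y axis), with a STAT-type match in 200 bp around the centre, by whether the region had a peak only after IL-4, in both conditions, or at all (x axis), with Cish and Socs regions as blue points with Wilson 95% intervals and all regions of the series as orange diamonds. Members stand at 50%, 26.2% and 33.3%, against 20.3%, 13.6% and 14.4%.

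Other genes of the pathway show how the members compare with their surroundings. Of 7 receptor and kinase genes (Il4ra, Il2rg, Il13ra1, Jak1, Jak2, Jak3 and Tyk2), 6 had a peak. C/EBPα had 18 peaks there in control and 20 after IL-4, of which 4 were only after IL-4, and IRF8 had 34 and 29, with 10 only after IL-4 and 13 only in control. The 7 STAT genes all had peaks, with 17 and 16 for C/EBPα and 20 and 25 for IRF8, and 9 of these last only after IL-4. At 10 other inhibitor genes, the phosphatases, Pias genes and Sh2b3, C/EBPα had 33 and 30 peaks and IRF8 48 and 44. As shares, 20%, 12.5% and 6.67% of the C/EBPα peaks after IL-4 at these 3 lists had no control partner, in the order given, beside 40.0% at the SOCS genes and 22.0% of all peaks. For control IRF8 peaks without a partner after IL-4 the shares were 38.2%, 15% and 27.1%, beside 0 of 33 at the SOCS genes and 21.4% of all, all under the 1 bp rule. The SOCS genes stood apart less on the other 2 measures, under the same rule. IRF8 peaks found only after IL-4 made up 34.5%, 36% and 22.7%, beside 37.25% at the SOCS genes and 30.4% of all. C/EBPα peaks found only in control made up 16.7%, 17.6% and 12.1%, beside 14.29% and 21.4%. Only the SOCS genes were recomputed under the other overlap rules, and the differences between lists were not tested.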

How the data were processed

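The 6 annotated peak lists, 1 per factor and condition, are in mm10 coordinates. The authors called peaks per sample and removed blacklisted regions, according to their methods, and the submitters' processing notes name BWA 0.7.10, SAMtools 0.1.19, MACS2 2.0.10 and HOMER 4.2. The peak score was used as deposited (lowest value 1.3), without a known unit, and the TSS distance, gene name and annotation columns likewise. Depth and the control library were not given in the sources used here. Of the 2 library kits named, the one behind each sample is not known either, so kit, depth and IL-4 cannot be told apart.

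All peaks were kept. Sharing between control and IL-4 needed 1 bp of overlap. For score ratios each peak had at most 1 partner, the one with most overlap, and ratios of at least 1.5 either way were counted. Overlapping peaks of any list formed a region. Intervals are Wilson 95% and cover counting error only. Motifs were exact matches on both strands in 200 bp around the region centre, and percentiles are of the score within its list. Markers under an older symbol (Sfpi1, Emr1) were matched through RefSeq synonyms.

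All members are accounted for. Values are given for every region with a promoter or JUNB peak or all 3 factors, for the highest peak of each member and factor, and for the 3 highest IL-4-only and control-only peaks of each factor. Other regions named were chosen after their values were seen, and the members, gene lists and motifs with earlier results of these data known. Alternatives varied the overlap, score, distance, promoter and window rules. Scripts were tested on simulated data and used pandas 2.3.3, numpy 2.4.6, scipy 1.17.1, pysam 0.24.0 and matplotlib 3.10.9 under Python 3.11.15.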

Additional observations from a re-analysis of the deposited data

Results flagged for a closer look

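Peak numbers of a gene differed in direction between factors 4 times, and with 1 sample per group none of these differences was tested. At Socs6, IRF8 had 7 more peaks after IL-4 and JUNB 1 fewer, a difference of 8, and C/EBPα had 1 more, a difference of 2 from JUNB. At Socs5, C/EBPα had 2 more and JUNB 1 fewer, a difference of 3. For Socs7, IRF8 had 1 more and C/EBPα 1 fewer, a difference of 2. The JUNB list as a whole went from 3940 to 2325 peaks, which moves in the same direction as the JUNB counts here, and its part in them was not tested.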

How the results depend on the processing

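Of 92 values recomputed for 30 results under the alternatives, 88 stayed within the limits set for them. For a share the limit was the Wilson interval of the reported value, and for a count or ratio it was 1.5-fold. These limits are wide. The C/EBPα share found only after IL-4 counted as staying at 27.0% within 50000 bp of an annotated TSS, against the reported 40.0%. Control JUNB member peaks numbered 3 in place of 5 with scores of at least 5. With a reciprocal overlap of 50%, 12.1% of the 33 control IRF8 peaks had no partner after IL-4, where none did with 1 bp. The share was 6.06% with centres within 200 bp and 3.03% with lists cut to equal length by score. It was 3.33% with scores of at least 5 and 6.67% within 50000 bp of an annotated TSS. The absence of such peaks thus depends on the rule. The JUNB score ratio, which rests on 3 pairs or fewer, turned from higher to lower after IL-4. It was 0.675 over 3 pairs within 50000 bp of a member's annotated TSS and, in an alternative chosen after seeing the data, 0.599 for the single pair left without Socs1, against 1.14 for the 2 pairs. No paired analysis was possible because each group has 1 sample, and for the same reason no replicate could be left out. Depth limits the low peaks most, since a peak near the caller's limit in one list can be missed in the other, and scores near the lowest deposited values should be read so.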
